A study of Homo sapiens with 7 samples.

Results

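XBP1 and GREB1 are a pair of estrogen-regulated genes whose starts lie inside the H3K27ac peaks that ranked 1 and 3 by width in T-47D cells. The loci were taken as each gene plus 50 kb on each side in hg19. For XBP1 the gene was chromosome 22, 29190548 to 29196560, on the minus strand, and for GREB1 it was chromosome 2, 11674242 to 11782912, on the plus strand. Of 285703 peaks in 6 lists, 69 lay in these windows, 25 at XBP1 and 44 at GREB1. The members were chosen by the width of the H3K27ac peaks they lie in, so those widths and their ranks are a description and carry no test.

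T-47D is an established luminal, estrogen receptor-positive breast cancer line. The cells were grown in DMEM with serum, the labels name no hormone treatment or withdrawal, and all libraries share this condition. Chromatin immunoprecipitation sequencing was done with antibodies to H3K27ac, H3K4me2, H3K36me3, H3K27me3, H2A.Z and H3K9me3, with 1 library per antibody, and the input library was not analysed here. With 1 library there is no replicate error for any value, and no source used here gives the read depth or the copy number of the loci. Each deposited list gives only the start and end of its peaks, so weaker signal between peaks could not be seen. Line identity was not checked against marker genes, because no hg19 annotation was used here.

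XBP1 encodes a basic leucine zipper factor of the unfolded protein response. Its mRNA is spliced by the endoplasmic reticulum stress sensor IRE1, which gives the active form, and the gene is expressed highly in secretory cells and in estrogen receptor-positive breast tumours. GREB1, named for growth regulation by estrogen in breast cancer, is an early target of the estrogen receptor and encodes a protein that binds the receptor. The receptor acts largely through enhancers, which carry H3K27ac and H3K4me2 when active, and unusually long acetylated stretches are common near genes that define a cell type. H3K36me3 is laid down along transcribed gene bodies, H3K27me3 marks Polycomb-repressed chromatin, H3K9me3 marks heterochromatin and H2A.Z is a histone variant of promoters and enhancers.

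The promoter of XBP1 is shown because its start was covered by the acetylated domain. RefSeq's promoter table (GRCh38.p14) held 1 of the 2 genes, XBP1, with 2 starts, and GREB1 was not matched. The sequence below is the 250 bases before the outer XBP1 start, chr22:28800570-28800819 in GRCh38.p14, minus strand, 5′ to 3′ along the gene. Capitals mark the fixed letters of a match to the ER stress response element.
XBP1 promoter: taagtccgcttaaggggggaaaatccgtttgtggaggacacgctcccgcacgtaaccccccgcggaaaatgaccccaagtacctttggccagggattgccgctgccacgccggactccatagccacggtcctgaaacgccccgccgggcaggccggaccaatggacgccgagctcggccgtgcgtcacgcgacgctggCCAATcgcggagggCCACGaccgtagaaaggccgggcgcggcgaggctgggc
In hg19 the 250 bp before the gene start used here (29196561 to 29196810) lay wholly in the H3K27ac peak and in no other list. The same was true of the 250 bp before the GREB1 start (chromosome 2, 11673992 to 11674241).

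The ER stress response element, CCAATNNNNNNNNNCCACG, is a sequence through which some unfolded protein response factors act on target genes. It matched once, from 52 to 34 bases before the XBP1 start. Among 35116 RefSeq promoter windows of the same length, searched on both strands, 0.0740% held a match. The shorter box CCAAT matched at 2 places, of which 1 is part of that element, and 32.0% of the windows held it. The full estrogen response element, GGTCANNNTGACC, had no match in this window and was found in 0.0399% of all windows. Its single arm GGTCA matched once, on the opposite strand, as it did in 32.6% of windows. The core letters ACGT, shared by bZIP sites, also matched once, against 29.3% of windows. There was no match for the forkhead letters TGTTTAC, which 2.98% of windows hold, or for the GATA factor letters AGATAA, which 9.17% hold. Nor was there a match for AP-1, searched as TGANTCA and held by 6.57%, for the TATA box as TATAAA (10.7%), or for the GC box as GGGCGG (42.6%). The window before the inner XBP1 start had 3 GC boxes and no CCAAT box. The outer window was 67.6% G and C with 31 CG pairs, against medians of 58.0% and 11 over all windows. Matches are descriptions of letters and not of binding.

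The XBP1 gene sat wholly inside acetylated chromatin that reached far upstream of its start. Its H3K27ac peak spanned 39617 bp on chromosome 22 (29185842 to 29225458) and was the widest of 31453. It began 28.9 kb upstream of the gene start and ended 10.7 kb past it, which is 4.71 kb past the gene's end, so 72.9% of the peak was upstream. At GREB1 the extent was turned the other way. There the peak spanned 30511 bp (11669584 to 11700094), had rank 3 and began 4.7 kb upstream of the start. It ran 25.9 kb into the gene, so that 84.7% lay downstream of the start and 23.8% of the gene body was covered.

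The peak between them in rank was 34016 bp wide on chromosome 4 (37451046 to 37485061). The fourth and the fifth were 28504 bp on chromosome 17 and 27846 bp on chromosome 6. The XBP1 peak was 60.7 times the list's median width of 653 bp and the GREB1 peak 46.7 times, and each was the widest on its chromosome. The ranks rest on how neighbouring peaks are joined. With peaks merged within 5 kb, the XBP1 domain grew to 46.7 kb but fell to rank 6, and the GREB1 domain grew to 54.4 kb and moved to rank 2. Among H3K27ac peaks, 510 touched or overlapped another peak of the same list, and none of these were in the 2 loci. They include the fifth and the seventh widest (chromosome 6, 151964285 to 151992130 and 151963580 to 151990112), which lie on largely the same sequence. The ranks therefore count some regions more than once.

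**Figure D1:**
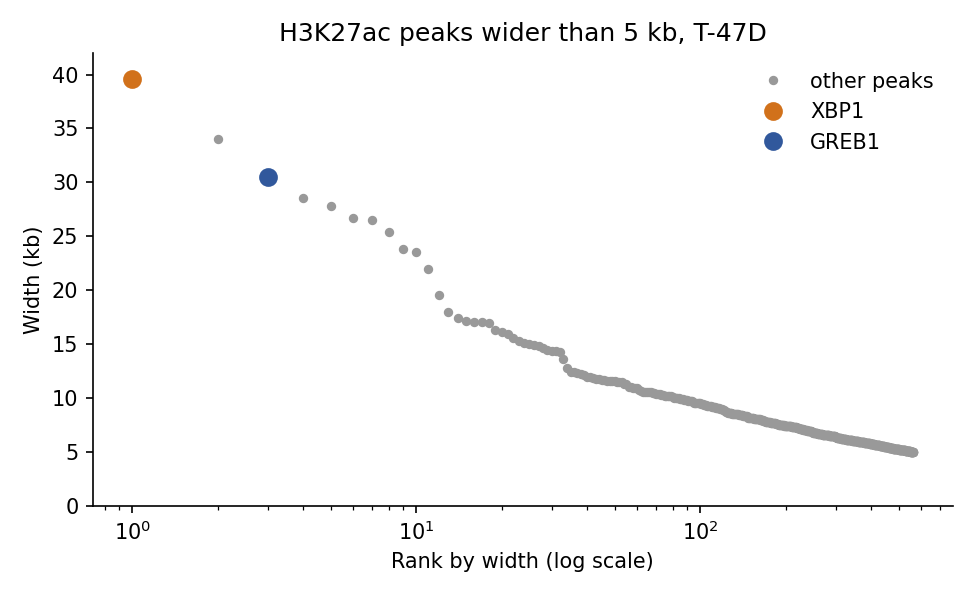
Width in kb (y axis) of the 564 H3K27ac peaks wider than 5 kb against their rank (x axis, log scale), with 1 point per peak. XBP1 (39617 bp) has rank 1 and GREB1 (30511 bp) rank 3, and the points between rank 1 and rank 10 fall to 23.5 kb.

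Along XBP1 the marks followed an order in the direction of transcription. First came an outlying H3K4me2 peak of 501 bp at 41.9 to 41.4 kb upstream, followed by 12549 bp without a peak. The acetylated domain then opened at 28.9 kb upstream, with H3K4me2 peaks of 501 and 896 bp inside it, the nearer ending 19.8 kb before the start. From there H3K27ac stood without another list for 20559 bp, across the gene start, to 0.8 kb into the gene. H3K36me3 began 777 bp after the start and ran for 6046 bp, to 6.8 kb after the start and past the gene's end, so it covered 87.1% of the gene body. Inside this H3K36me3 peak were H3K4me2 peaks of 821 bp, beginning 2965 bp after the start, and of 635 bp across the gene's end. Over most of the gene body acetylation and H3K36me3 thus lay on the same sequence, and whether they share cells or alleles was not tested. An H3K36me3 peak of 682 bp crossed the end of the domain at 10.7 kb, sharing 258 bp with it. Beyond it 5 H3K36me3 peaks of 501 to 3532 bp lay between 12.6 and 26.0 kb, with 5 short H3K27ac peaks of 501 to 902 bp up to 29.6 kb. The other 5 H3K4me2 peaks, of 501 to 1578 bp, lay up to 41.3 kb, the widest of them alone at 39.7 kb. H3K36me3 then had a peak of 501 bp at 48.8 kb and a last peak of 6368 bp, which crossed the edge of the window from 50.6 to 56.9 kb.

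**Figure D2:**
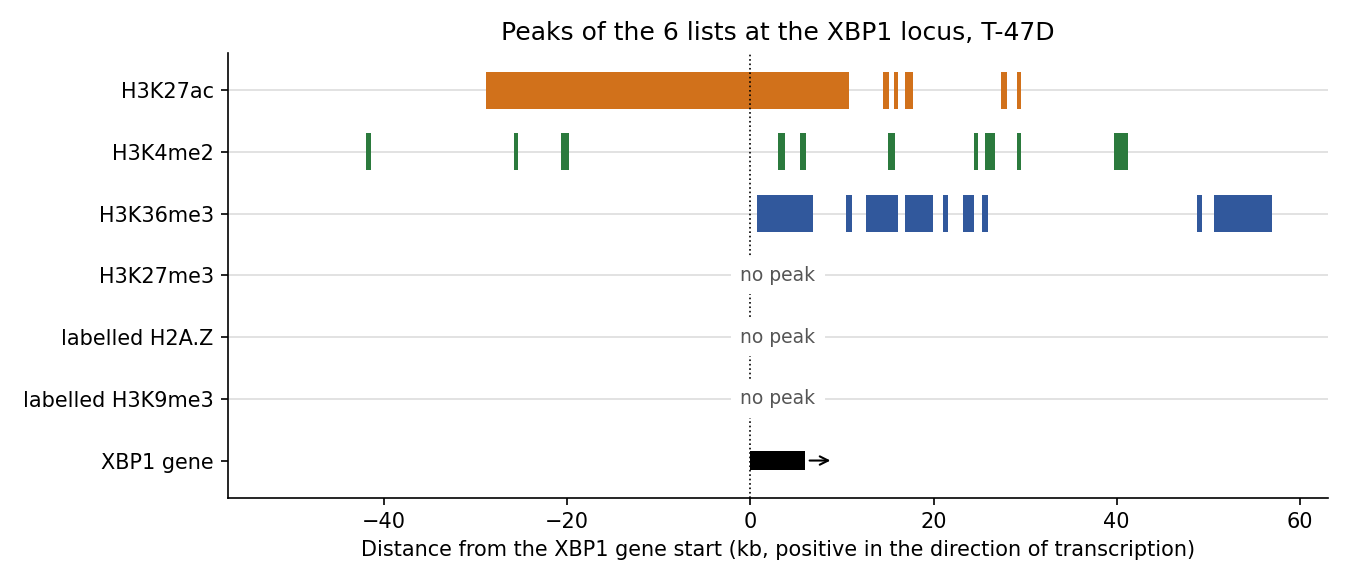
Peaks of the 6 lists (rows) against distance from the XBP1 gene start in kb (x axis, positive in the direction of transcription), with each bar a peak at its true width and the black bar the gene. The H3K27ac peak runs from 28.9 kb upstream to 10.7 kb downstream, H3K36me3 lies only downstream of the start, and the lower 3 lists have no peak.

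At XBP1 no H3K36me3 peak lay upstream of the start in the window, where 0 of 50000 bp were covered, whereas the downstream flank was covered at 32.7%. H3K27ac showed the opposite balance, with 57.8% of the upstream and 15.9% of the downstream flank. The upstream share, 28898 bp, is wholly the wide peak that chose the locus. H3K27ac shares are therefore only a description beside those of the genome. Over the genome, H3K27ac peaks covered 1.22% of the span between the first and last peak of each chromosome, H3K4me2 1.79% and H3K36me3 3.42%. On chromosome 22 these shares were 2.71, 2.63 and 7.99%. In GRCh38.p14 the next protein-coding gene upstream of XBP1 is ZNRF3 and the next downstream is CCDC117. The H3K36me3 peaks of the downstream flank were not assigned to XBP1 or to either neighbour. Whether CCDC117 lies inside the hg19 window was not determined.

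Along GREB1 the 50 kb upstream flank held more H3K4me2 than at XBP1, most of it between the edge of the window and 33.0 kb upstream. An H3K27ac peak of 9523 bp, the 99th widest of its list, crossed the upstream edge of the window and ended 46.2 kb before the start. In the window it overlapped H3K4me2 peaks of 3608 and 1496 bp, the latter running 917 bp past its end, and the former ranked 485th of 64561. H3K27ac peaks of 672 and 2066 bp came next, the latter meeting an H3K4me2 peak of 1335 bp. Another 3 H3K4me2 peaks of 649 to 1319 bp followed between 37.2 and 33.0 kb upstream with no H3K27ac. Short paired peaks of both marks came at 23.2 to 21.8 kb upstream, where an H3K27ac peak of 1273 bp met an H3K4me2 peak of 501 bp, and H3K36me3 peaks of 501 and 756 bp lay between 16.9 and 13.8 kb upstream. Nearer the domain were H3K27ac peaks of 631 and 696 bp, and between them an H3K4me2 peak of 847 bp, none of which met another list. The upstream flank as a whole was covered at 27.6% by H3K27ac and 19.8% by H3K4me2, where H3K4me2 covered 3.80% of the XBP1 upstream flank. Over the whole windows, gene bodies included, the order of the loci depended on the flank. With 50 kb flanks H3K4me2 covered 8.20% at GREB1 and 7.42% at XBP1. With 25 kb flanks it covered 5.40% of the whole GREB1 window and 9.45% of the whole XBP1 window. In the upstream 25 kb alone, GREB1 had H3K4me2 peaks of 501 and 847 bp and XBP1 had 1 of 896 bp.

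From the start of the GREB1 domain, H3K27ac was again without another list for 8360 bp, from 4.7 kb upstream to 3.7 kb downstream of the gene start. A single H3K4me2 peak of 501 bp began 3702 bp after the start. Its width is the commonest over all lists, and among peaks wider than the list's median the first H3K4me2 peak after the start began at 21626 bp. H3K36me3 appeared at 14.4 kb and made 3 peaks of 501, 1495 and 501 bp up to 19.7 kb, all inside the acetylated domain. H3K4me2 returned in peaks of 670, 1151 and 1894 bp between 21.6 and 27.3 kb, and the last of these crossed the end of the domain at 25.9 kb. Beyond it came 12 H3K27ac peaks of at most 755 bp, 10 of them 501 bp wide, spread from 29.2 to 94.3 kb. H3K4me2 peaks of 632, 713 and 501 bp lay among the first of them, up to 37.4 kb, and a further peak of 656 bp stood alone at 86.9 kb.

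**Figure D3:**
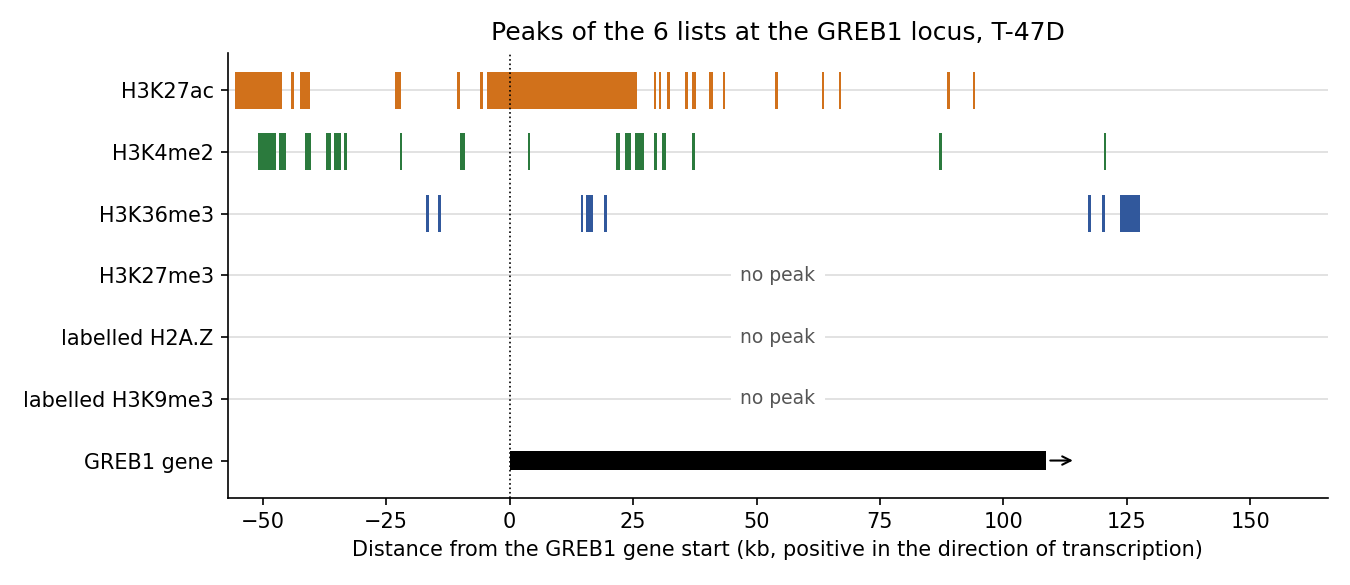
Peaks of the 6 lists (rows) against distance from the GREB1 gene start in kb (x axis, positive in the direction of transcription), with each bar a peak at its true width and the black bar the gene. The H3K27ac peak runs from 4.7 kb upstream to 25.9 kb downstream, and no H3K36me3 peak lies from 19.7 to 117.2 kb.

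The genes differed in H3K36me3. In GREB1 it covered 2.30% of the gene body, where it covered 3.42% of the genome and 2.71% of chromosome 2, and no H3K36me3 peak lay in the 97.5 kb between 19.7 and 117.2 kb after the start, a stretch that holds most of the gene and its end. In XBP1 it covered 87.1%, where it covered 7.99% of chromosome 22. In kilobases the gene bodies held 2.50 kb at GREB1 and 5.24 kb at XBP1. H3K36me3 resumed past the end of GREB1, with peaks of 501 and 659 bp between 117.2 and 120.6 kb. The latter overlapped the only H3K4me2 peak of the downstream flank, 501 bp wide. An H3K36me3 peak of 4181 bp followed at 123.6 to 127.8 kb. H3K36me3 covered 10.7% of the downstream flank, where H3K27ac had no peak. In GRCh38.p14 the next protein-coding gene downstream is NTSR2 and the next upstream is E2F6. RefSeq lists a longer span for GREB1 than the one used here, so other starts may exist outside it, and distances hold for the start given above.

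**Figure D4:**
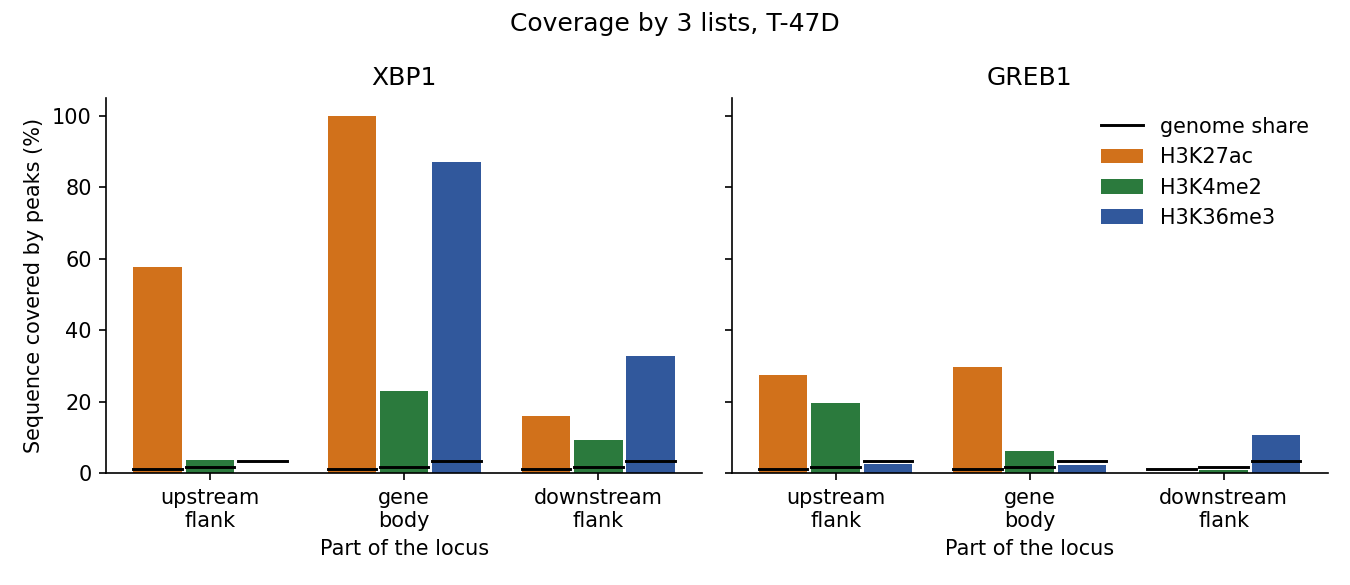
Share of sequence covered by peaks (y axis, %) in the upstream flank, gene body and downstream flank (x axis) of XBP1 and GREB1, with 1 bar per list and a black line at that list's share of the genome. At XBP1 H3K36me3 reaches 87.1% of the gene body, and at GREB1 it is at 2.30%, with its line at 3.42%. The H3K27ac bars include the wide peaks that chose the loci.

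Neither gene start had an H3K4me2 peak at the start itself. Within 2 kb on each side of the start, H3K27ac covered all 4001 bp at both genes and H3K4me2 covered 0. The nearest H3K4me2 peaks were 19.8 kb upstream and 2965 bp downstream at XBP1, and 9.1 kb upstream and 3702 bp downstream at GREB1. Other gene starts were not analysed here, so how common this is was not measured. H3K36me3 entered the 2 kb after the start at XBP1, with 1224 bp, and not at GREB1.

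In the windows, 4 of 6 H3K27ac peaks at XBP1 and 6 of 19 at GREB1 overlapped H3K4me2, where 48.8% of the whole list did. For H3K36me3 the counts were 4 of 6 and 1 of 19, against 12.9% of the list. Over both loci these came to 40.0% and 20.0%, but each XBP1 count rests on few peaks, several of them short and close together. Of the H3K4me2 peaks, 6 of 10 at XBP1 and 10 of 17 at GREB1 overlapped H3K27ac (25.7% of the list). H3K4me2 met H3K36me3 at 5 of 10 peaks at XBP1 and 1 of 17 at GREB1, where 4.09% of the list did. Of the H3K36me3 peaks, 4 of 9 at XBP1 and 3 of 8 at GREB1 overlapped H3K27ac (6.61% of the list), and 5 of 9 and 1 of 8 overlapped H3K4me2 (4.86% of the list). The choice by H3K27ac width bears on every overlap with H3K27ac here, and those counts are given only as a description. All 3 lists together covered 1794 bp at XBP1, in 4 stretches, and no stretch of the GREB1 window.

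The 564 H3K27ac peaks wider than 5 kb were used to place these domains among others of their kind. Some wide peaks overlapped each other, so a region could be counted more than once. Of the 564, 88.5% overlapped H3K4me2, 31.7% overlapped H3K36me3 and 29.3% overlapped both, as did XBP1 and GREB1. Both domains held 4 H3K4me2 peaks, a count found in 29 wide peaks, these domains among them, and exceeded in 9. This count can rise with the width that chose the loci. H3K4me2 covered 7.20% of the XBP1 domain and 9.16% of the GREB1 domain. The median over wide peaks was 19.3%, with quartiles of 9.56 and 34.5%, so both lay below the lower quartile. This share has the width that chose the loci as its denominator. Among the other peaks in the 10 widest, only that with rank 6, at 6.21%, was also below the lower quartile. Ranks 10, 9, 8 and 2 had 10.8, 12.1, 14.6 and 17.0%, below the median. Ranks 5, 7 and 4 had 27.3, 29.8 and 44.5%, above it. In XBP1 the longest stretch of the domain without H3K4me2 was 22747 bp, the longest among the 564, and in GREB1 it was 17423 bp, the second longest. As a share of the domain these were 57.4 and 57.1%, close to the median of 50.5%, so their length goes with the width that chose the loci.

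XBP1 also had more H3K36me3 inside its acetylated domain than any other wide peak, with 6304 bp, and GREB1 ranked 25th with 2497 bp. The median was 0, and the upper quartile 501 bp. The bp inside a peak can grow with its width, which chose the loci, so these ranks in bp are only a description. As shares of the domain the XBP1 and GREB1 values were 15.9% (rank 66) and 8.18% (rank 124). The wide peaks most like XBP1 by this measure were on chromosome 20 (49338984 to 49362809) with 6251 bp, chromosome 22 (24937293 to 24947725) with 5914 bp and chromosome 15 (41135123 to 41145418) with 5696 bp. Of these, the chromosome 22 and 15 peaks were 10433 and 10296 bp wide, and H3K36me3 covered 56.7 and 55.3% of them. The chromosome 4 peak, second in width, held 8 H3K4me2 peaks over 17.0% and H3K36me3 over 7.65% of its length.

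**Figure D5:**
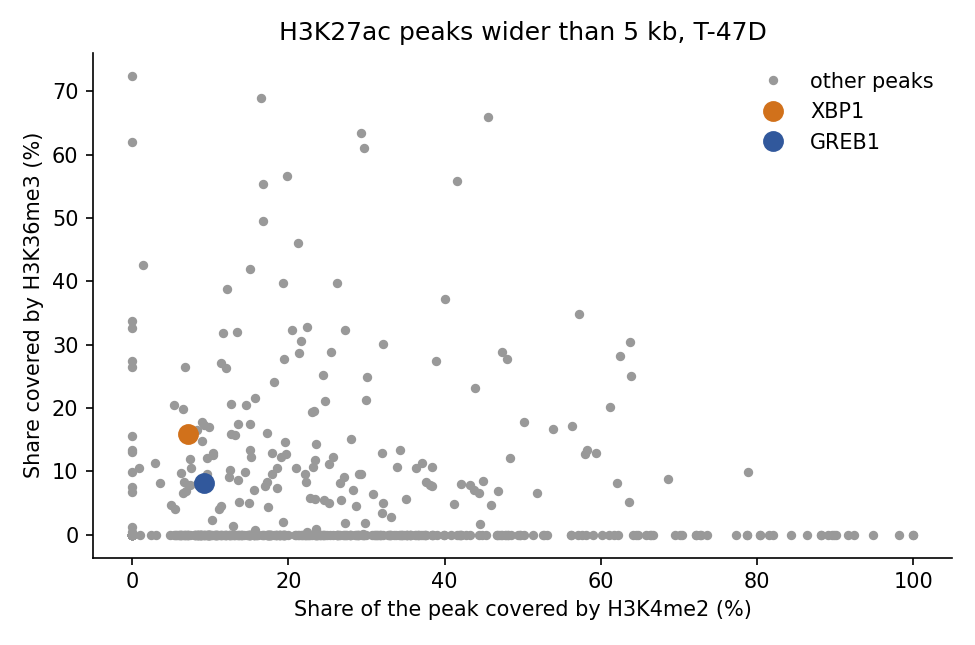
Share of each H3K27ac peak wider than 5 kb covered by H3K4me2 (x axis, %) and by H3K36me3 (y axis, %), with 1 point for each of 564 peaks. XBP1 (7.20 and 15.9%) and GREB1 (9.16 and 8.18%) lie at low H3K4me2, and the row of points at 0 is wide peaks without H3K36me3.

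No peak of H3K27me3, or of the lists labelled H2A.Z and H3K9me3, lay in either window. The latter pair are named by their labels, since over the whole series 0.0460% of labelled H2A.Z peaks and 30.4% of labelled H3K9me3 peaks overlapped H3K27ac, opposite to the background given above for these marks. For H3K27me3, 95.6% of the wide H3K27ac peaks likewise had none within 50 kb, and for the list labelled H2A.Z 90.4% had none. Around both domains all 3 lists had 0 peaks within 50 kb, as they did around 32.4% of wide peaks. The list labelled H3K9me3 was missing around 34.0% of wide peaks, and around 58.1% of the 62 wide peaks on chromosomes 2 and 22. This list was sparse on those chromosomes, at 2.66 and 2.97 peaks per Mb against 6.94 on all chromosomes, and the list labelled H2A.Z had 1.72 and 4.10 against 17.7. At those densities a window of this size would hold 0.555 labelled H3K9me3 peaks at GREB1 and 0.315 at XBP1, and 0.359 and 0.435 labelled H2A.Z peaks, so counts of 0 for these lists do not set the loci apart. For H3K27me3 the same figures were 1.48 at GREB1 and 2.49 at XBP1.

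The nearest H3K27me3 peaks were 364 kb downstream and 1366 kb upstream of XBP1, and 75.8 kb downstream and 1031 kb upstream of GREB1. The nearest labelled H3K9me3 peak was 274 kb upstream of XBP1 and 67.2 kb upstream of GREB1. For the list labelled H2A.Z the nearest peaks were 1563 kb downstream of XBP1 and 205 kb downstream of GREB1.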

How the data were processed

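ChIP-seq peak lists from 6 libraries of T-47D cells were analysed. The tools named, per the submitters' processing notes, are HOMER 4.2 and Bowtie2 2.1.0, with builds hg19 and GRCh37. No source used here gives the role of each tool, the peak calling settings or the use of the input. The deposited files hold positions without a height, signal or p-value. Peaks on chromosomes 1 to 22 and X were kept, and coordinates are 1-based. A peak was counted in a locus when it shared at least 1 bp with the gene plus 50 kb each side. Overlap meant at least 1 shared bp, and covered bp were counted on merged peaks. Width ranks were taken within each list. Interval functions were tested on simulated data. No test was made, since each mark has 1 library.

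The genes, the regions named (all peaks in the loci, the 5 widest H3K27ac peaks and the 3 wide peaks with the most H3K36me3) and the motifs were chosen with earlier results of these data known. Planned counts of other estrogen and unfolded protein response genes, and of luminal markers, need an hg19 annotation and were not analysed here. Promoter sequences and gene neighbours came from RefSeq (GRCh38.p14), and no coordinate was converted between builds. The alternatives were other flanks, peaks wider than their list's median, midpoints, merging within 1 or 5 kb, autosomes only and a 50% overlap. Python 3.11.15, numpy 2.4.6 and matplotlib 3.10.9 were used.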

Additional observations from a re-analysis of the deposited data

How the results depend on the processing

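Of 56 alternative values for 22 results, 43 kept the same rank or stayed within 1.5 times, 13 moved and 0 reversed. With H3K27ac peaks merged within 5 kb the width rank became 6 for XBP1 and 2 for GREB1. H3K27ac coverage of the XBP1 window was 69.6% with 25 kb flanks and 21.8% with 100 kb flanks, against 40.4%. At GREB1, H3K4me2 coverage was 5.40% with 25 kb flanks, against 8.20%, and H3K36me3 coverage was 6.75% with 100 kb flanks, against 4.36%. Among peaks wider than the list median, the first H3K4me2 peak after the GREB1 start was at 21626 bp instead of 3702 bp. In that stricter list, 1 H3K27ac peak at XBP1 overlapped H3K4me2 and 2 overlapped H3K36me3, in place of 4 each, and 3 at GREB1 overlapped H3K4me2, in place of 6. This setting also drops H3K27ac peaks of up to 653 bp from the 6 at XBP1 and the 19 at GREB1. At XBP1 it leaves those of 39617, 902 and 723 bp. A lower count is therefore not a lower share, and the whole-list shares under this setting were not computed. With an overlap of 50% of the shorter peak, 2 at XBP1 overlapped H3K4me2. With 100 kb flanks, GREB1 gained 1 H3K27me3 peak and 1 labelled H3K9me3 peak. The causes of these moves were not tested beyond the sequence or peaks each setting adds or drops. No paired analysis was possible because each mark has 1 library. Depth is unknown, so peak edges and the lack of a peak depend on the authors' threshold.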

Other observations

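Between 50 and 100 kb from the genes, outside the windows above, both loci had H3K36me3 peaks on a single side. Peak widths were summed whole, and at both loci the farthest of these peaks crossed the 100 kb edge. At XBP1 the side with H3K36me3 was downstream, with 10 peaks summing to 36.6 kb, and the upstream side had none. At GREB1 it was the upstream side, with 6 H3K36me3 peaks summing to 11.9 kb, the widest 7826 bp at 87.2 to 79.4 kb before the start, and the downstream side had none.

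A small cluster of active marks lay near each of these H3K36me3 stretches. At XBP1 an H3K27ac peak of 1993 bp lay 57.9 to 59.9 kb after the start with 3 H3K4me2 peaks of 501 to 814 bp around it. At GREB1 an H3K27ac peak of 1876 bp lay 69.1 to 67.2 kb before the start and overlapped H3K4me2 peaks of 2509 and 1107 bp. The labelled H3K9me3 peak nearest to GREB1, 501 bp wide (11606535 to 11607035), overlapped both this H3K27ac peak and the H3K4me2 peak of 1107 bp.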
